A study of Homo sapiens with 9 samples.

Results

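NRF2 is the transcription factor through which cells answer oxidants and reactive compounds, and NFE2L2 is its gene. KEAP1 holds NRF2 in a complex that leads to its degradation, and NRF2 that escapes pairs with small MAF proteins at antioxidant response elements beside its target genes. Those targets make and recycle glutathione and thioredoxin, reduce quinones, take heme apart, store the freed iron in ferritin and pump glutathione conjugates out of the cell. In colorectal and other tumours this program is known for the protection it gives against oxidants and drugs.

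A list of 33 genes of this program was read in all 9 RNA-seq libraries: NRF2 and its regulators, its established targets, and genes of glutathione, heme and iron storage. Members were taken by gene symbol, but the list was chosen with earlier results of these data known. Each of the 33 symbols matched 1 of the 61806 Ensembl gene identifiers in the count table. A filter on low counts left 31 members among 20868 genes tested.

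The cells were HCT116, an established human colorectal cancer line, transfected with siRNA by lipid reagent. A control siRNA, siRNA 1 and siRNA 2 were each used for 3 libraries, and both numbered siRNAs target EXOSC10-AS1, a long non-coding RNA antisense to EXOSC10. All 9 libraries carry the batch entry day 3, and the labels do not say whether libraries of a group came from separate cultures. The p-values therefore measure the spread between these libraries, which may be technical.

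Depth lay between 56.8 and 66.5 M counts per library. EXOSC10-AS1 held 26, 4 and 14 counts in the control libraries, 4, 0 and 0 with siRNA 1 and 5, 13 and 0 with siRNA 2. It was not called with either siRNA (edgeR adjusted p = 0.19 and 0.55), and a loss of the targeted RNA was therefore not called. Gene levels followed GC content in siRNA 1 replicate 1 (r = 0.525 across 13358 genes) and, in the other direction, in siRNA 2 replicates 2 and 3 (r = -0.50 and -0.508). In the other 6 libraries r lay between -0.155 and 0.0605. These correlations are across genes, which are not independent replicates. Of 10 colorectal epithelial markers, 9 had counts in the control group, where their summed level was 4833 to 4935 CPM, the count scaled to library size. That sum was 4056 to 4787 CPM with siRNA 1 and 3576 to 4233 CPM with siRNA 2, and CDX1 was at 0 in every library. KRT8, KRT18 and KRT19 averaged 1950, 732 and 1946 CPM in control and made up most of the sum. The median log2 change of the 7 epithelial markers tested was 0.30 with siRNA 1 and -0.20 with siRNA 2, so the sum does not stand for each marker. Of 8 fibroblast markers, 6 had counts in control, and the summed level was 59.5 to 61.4, 46.9 to 52.4 and 36.1 to 40.3 CPM in the same group order. Nearly all of it was COL1A1, which averaged 59.3, 48.2 and 36.8 CPM in that order. Every other fibroblast marker was below 1 CPM in every library. The 7 leukocyte markers summed to at most 2.09 CPM and the 5 endothelial markers to at most 2.43 CPM in any library, and PTPRC, CD3E and MS4A1 were at 0 throughout. The part of these sums in the results below was not tested.

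In control cells the ferritin genes had the highest levels of the list per transcript length. FTH1, the ferritin heavy chain, stood at 1544 ± 9.29 CPM per kilobase and FTL, the light chain, at 1427 ± 33.6 (SD, n = 3). PRDX1 followed at 616 CPM per kilobase, then TXNRD1 at 211 and NQO1 at 202. SQSTM1, TXN, GSTP1 and GPX4 lay between 143 and 181 CPM per kilobase, and the control ranges of SQSTM1 and TXN overlapped, as did those of TXN and GSTP1. A broad middle of 17 genes ran from GSR at 63.9 to ABCC2 at 10.8 CPM per kilobase. Within it the ranges overlapped for NFE2L2 and BLVRB, for GSS and HMOX1, for GCLM and OSGIN1, and along the run ABCC1, BLVRA, EPHX1, MAFG and KEAP1. The aldo-keto reductases were low, with AKR1C3 at 2.12, AKR1B10 at 0.816, AKR1C1 at 0.278 and AKR1C2 at 0.161 CPM per kilobase. SLC40A1, the iron exporter ferroportin, was at 0.335 CPM per kilobase. Its range overlapped that of AKR1C1, and neither AKR1C2 and GPX2 nor GPX2 and CBR1 were apart in their ranges.

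**Figure D1:**
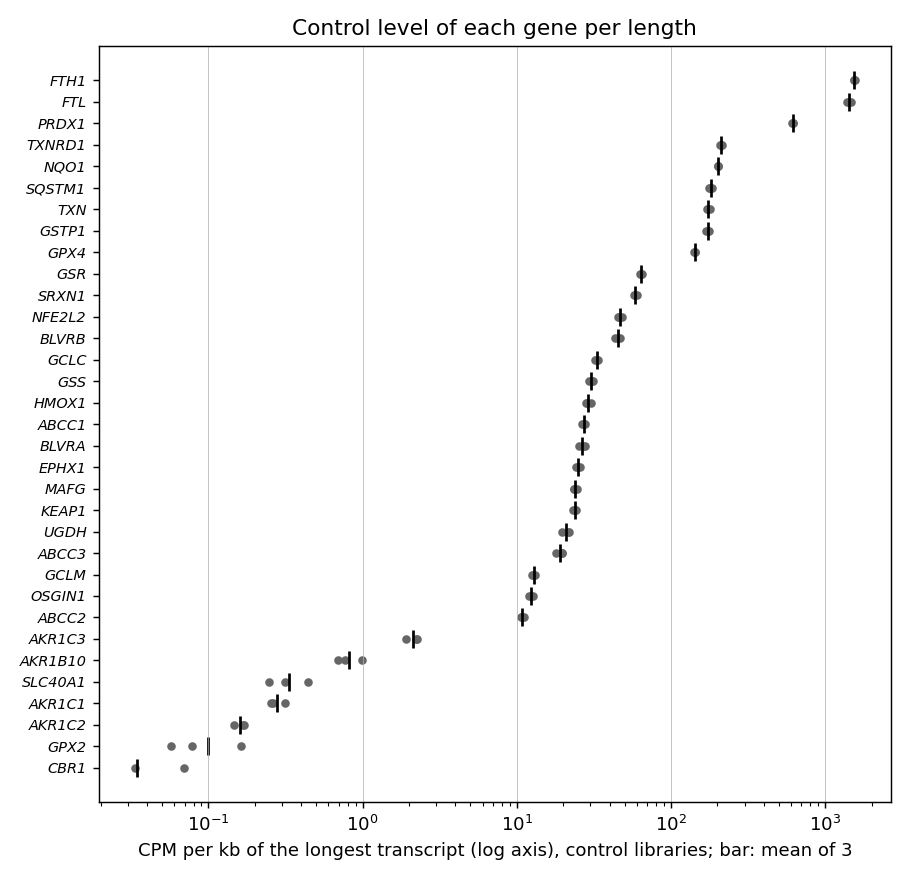
Level of each of the 33 genes in the 3 control libraries, in CPM per kilobase of the longest annotated transcript, on a log axis, with 1 point per library and a bar at their mean. FTH1 and FTL lie above 1000 CPM per kilobase and CBR1 and GPX2 lie lowest; the control library in which CBR1 had 0 counts cannot be drawn on a log axis.

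With siRNA 1, at an adjusted p under 0.05, 11 of the 31 members rose, 1 fell and 19 were not called, where 3.72% of all genes tested were called higher and 3.36% lower. Together 38.7% of members were called against 7.08% of all genes. The median log2 change of the members was 0.14, and that of all genes -0.02. The median was 0.22 with the GC trend of each library removed.

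With siRNA 2 the members split: 3 rose, 6 fell and 22 were not called, beside 6.15% and 7.61% of all genes. Thus 9 of 31 members were called in this comparison, beside 13.8% of all genes. The median log2 change was -0.09 for members and -0.01 for all genes. Both comparisons share the 3 control libraries, so a value that is high or low in those libraries enters both.

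Set against each other directly, siRNA 2 was lower than siRNA 1 for 16 members and higher for 2, with 13 not called. All genes were called lower in 12.3% and higher in 10.1% of cases in that contrast, or 22.4% in all, and the members in 58.1%. The median log2 difference was -0.30, and 0.00 over all genes. Of the 11 members that rose with siRNA 1, 10 were also lower with siRNA 2 than with siRNA 1, and EPHX1 was the exception. These 2 contrasts share the siRNA 1 libraries, so a value that is high in those libraries enters both. The second call is therefore not independent of the first. Libraries of the 2 groups did not overlap for 17, 15 and 20 of 31 members in the comparisons of siRNA 1 with control, siRNA 2 with control and siRNA 2 with siRNA 1. The same held for 34.7%, 39.9% and 38.6% of all genes.

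Other processing changed how many members and how many of all genes were called. With the GC trend of each library removed, 15, 11 and 19 members were called in the 3 comparisons in the same order, beside 20.0%, 20.8% and 26.8% of all genes. DESeq2 called 15, 10 and 19 members beside 13.9%, 19.9% and 28.7%. Without the 3 libraries that carry the trend the members numbered 20, 14 and 16, beside 23.5%, 16.5% and 16.4%.

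**Figure D2:**
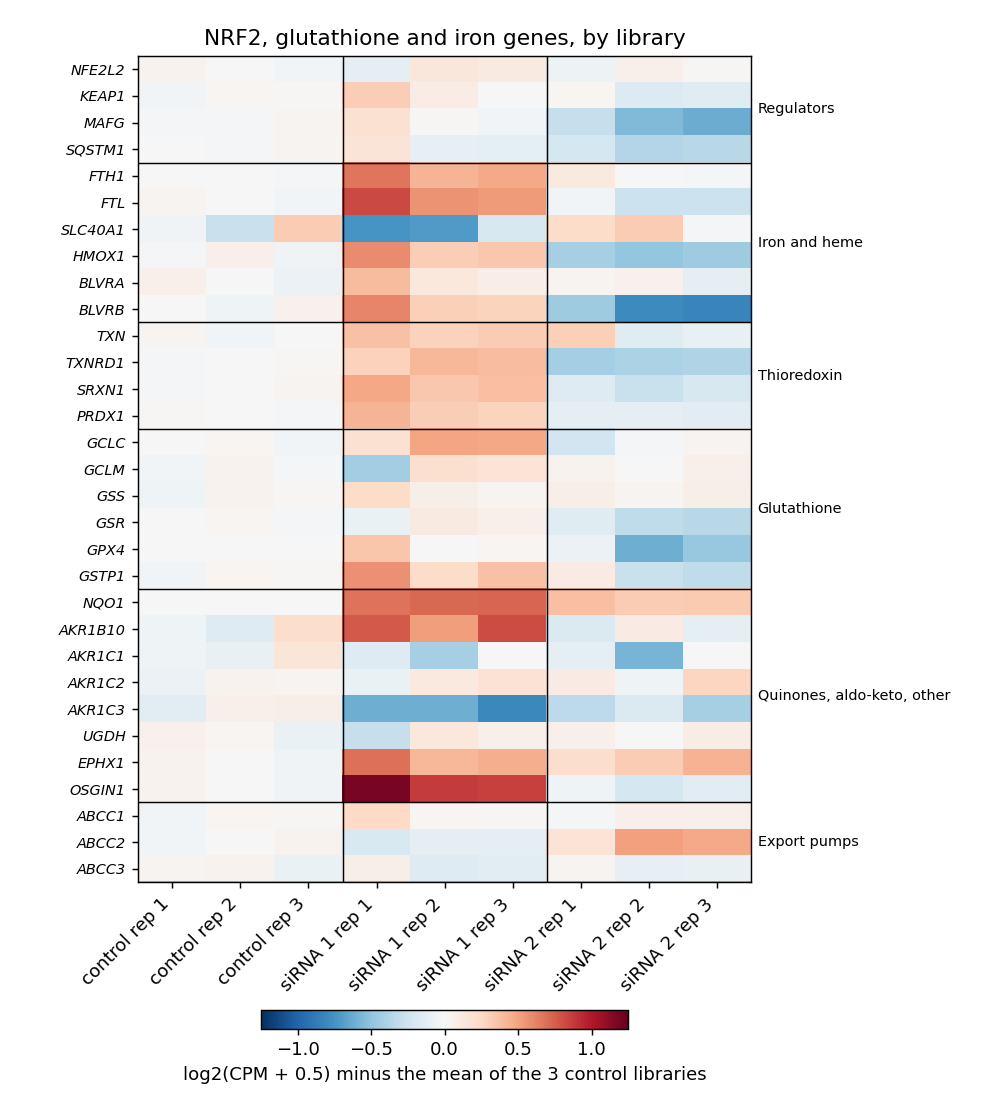
Deviation of the 31 tested genes from the mean of the 3 control libraries, as log2(CPM + 0.5), with 1 column per library and genes ordered by role. Most rows are red in the 3 siRNA 1 columns, and the siRNA 2 columns hold a mixture with NQO1 and EPHX1 red and BLVRB, HMOX1 and TXNRD1 blue.

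Library by library, the median deviation of the 31 members from the control mean was 0.29, 0.14 and 0.17 on the log2 scale in siRNA 1 replicates 1, 2 and 3. It was -0.04, -0.11 and -0.11 in the siRNA 2 libraries and between -0.01 and 0.01 in the controls. With the GC trend removed, the siRNA 1 values were 0.22, 0.17 and 0.18 and the siRNA 2 values 0.02, -0.12 and -0.09. All 3 siRNA 1 libraries thus lay above the controls on either scale, and siRNA 2 replicate 1 lay on the other side of 0 once the trend was removed. RNA from a culture is a mixture, so fewer cells with a transcript and less of it per cell cannot be told apart in any of these values.

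NFE2L2 (ENSG00000116044) itself was not called in any comparison. Its level was 137, 132 and 129 CPM in the control libraries, 122, 146 and 144 CPM with siRNA 1 and 127, 138 and 134 CPM with siRNA 2. The 3 groups overlapped, and its log2 change was 0.05 ± 0.08 for siRNA 1 (adjusted p = 0.76), while siRNA 2 gave 0.01 ± 0.08 (adjusted p = 0.97). Here and below ± gives the standard error of a log2 fold change where SD is not named. In the 6 libraries without a marked GC trend its log2 change with siRNA 1 was 0.13 (adjusted p = 0.015), a setting chosen after the data were seen. KEAP1 was at 68.5, 71.8 and 71.0 CPM in control, with overlap again between the siRNA groups and control. It was at 87.1, 75.0 and 70.4 CPM with siRNA 1 and 71.9, 62.7 and 63.6 CPM with siRNA 2. Its changes of 0.14 ± 0.09 (adjusted p = 0.41) and -0.09 ± 0.09 (adjusted p = 0.56) were not called. The siRNA 2 libraries deviated from the control mean of KEAP1 by 0.03, -0.17 and -0.15 on the log2 scale. With the GC trend removed they deviated by 0.12, 0.10 and 0.14. NFE2L2 shares exons with AGPS on the opposite strand, whose counts came to 61.0% of its own (counting strand: not given in the sources used here).

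MAFG (ENSG00000197063), a small MAF partner of NRF2 and itself an NRF2 target, fell with siRNA 2. Control libraries had 119, 119 and 123 CPM and siRNA 1 libraries 137, 121 and 117 CPM, while siRNA 2 libraries had 98.1, 81.7 and 77.8 CPM. All siRNA 2 libraries were below all others. The log2 change was -0.49 ± 0.10 (adjusted p = 0.011) against control and -0.55 ± 0.10 (adjusted p = 0.0044) against siRNA 1, and 0.06 ± 0.10 with siRNA 1 (adjusted p = 0.77). The call against control was lost without control replicate 2 or 3 or siRNA 2 replicate 2 or 3 (adjusted p up to 0.0604), and without the 3 libraries with a GC trend the changes were -0.29 and -0.29. MAFG overlaps SIRT7 on the same strand, whose counts equalled 72.3% of its own.

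SQSTM1 (ENSG00000161011), the autophagy receptor p62 that binds KEAP1, also fell with siRNA 2. It was at 537, 530 and 552 CPM in control, 601, 502 and 498 CPM with siRNA 1 and 464, 417 and 425 CPM with siRNA 2. The siRNA 2 libraries were the lowest, while those of siRNA 1 lay on both sides of control. The log2 change was -0.31 ± 0.08 (adjusted p = 0.031) against control and -0.29 ± 0.08 (adjusted p = 0.027) against siRNA 1, but -0.02 ± 0.08 for siRNA 1 (adjusted p = 0.94). With the GC trend removed the change against control was -0.15 and that between the siRNAs -0.13. The call against control was lost without each control library and without siRNA 2 replicate 2 or 3, with adjusted p up to 0.138, and the call between the siRNAs likewise (up to 0.107). Overlapping opposite-strand genes MGAT4B and MRNIP held 28.9% and 9.37% of the counts of SQSTM1.

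Ferritin rose with siRNA 1. FTH1 (ENSG00000167996) was at 1905, 1902 and 1884 CPM in control and at 3026, 2544 and 2630 CPM with siRNA 1. With siRNA 2 it was at 2068, 1901 and 1864 CPM, values that straddle the controls. It rose by 0.53 ± 0.07 with siRNA 1 (adjusted p = 0.0024), siRNA 2 gave 0.04 ± 0.07 (adjusted p = 0.78), and the difference between the siRNAs was -0.49 ± 0.07 (adjusted p = 0.0013), or -0.33 without the 3 libraries with a GC trend.

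FTL (ENSG00000087086) was also highest with siRNA 1. Controls were at 1284, 1251 and 1225 CPM, siRNA 1 libraries at 2218, 1852 and 1815 CPM, and siRNA 2 libraries at 1222, 1044 and 1041 CPM. No groups overlapped, and siRNA 1 replicate 1 was the highest library for both chains. The log2 change was 0.65 ± 0.09 with siRNA 1 (adjusted p = 0.0029), -0.19 ± 0.09 with siRNA 2 (adjusted p = 0.19) and -0.83 ± 0.09 between them (adjusted p = 0.00031). The siRNA 1 calls of both chains were kept in all 20 alternative settings. Both have processed copies in the genome: 25 listed copies of FTH1 held counts equal to 0.739% of its own, and 16 of FTL 0.15%.

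Translation of ferritin is governed by an iron-responsive element in the 5′ UTR, where iron regulatory proteins bind when iron is scarce; the level of these transcripts is a separate quantity from that translation. The same kind of element lies in the 5′ UTR of SLC40A1, and the 3 are shown because these members share the site while their levels did not follow the same order. Capitals mark the bulged C and, after 5 bases, the CAGTG of the loop, as found in GENCODE 29 transcripts on GRCh38.
FTH1 (chr11:61967575-61967604, minus strand): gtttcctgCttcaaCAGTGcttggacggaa
FTL (chr19:48965333-48965362, plus strand): gtctcttgCttcaaCAGTGtttggacggaa
SLC40A1 (chr2:189580662-189580691, minus strand): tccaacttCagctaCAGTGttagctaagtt
The ferritin sites carry 27 of 30 bases in common. They begin at base 57 of 235 of the FTH1 5′ UTR, base 33 of 207 for FTL and base 197 of 427 for SLC40A1.

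SLC40A1 (ENSG00000138449) had low counts. It was at 1.09, 0.847 and 1.53 CPM in control, 0.476, 0.499 and 0.918 CPM with siRNA 1 and 1.41, 1.53 and 1.11 CPM with siRNA 2. The siRNA groups did not overlap each other, and each overlapped control. Neither siRNA was called against control (-0.87 ± 0.33, adjusted p = 0.14, and 0.22 ± 0.32, adjusted p = 0.71). The difference between the siRNAs was 1.09 ± 0.33 (adjusted p = 0.040), a call lost in 11 of 20 alternatives. Among them were the fits without control replicate 1, without siRNA 1 replicate 1 or 2 and without any 1 of the siRNA 2 libraries, and adjusted p reached 0.214.

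Of the heme breakdown genes, HMOX1 and BLVRB differed between the siRNAs. HMOX1 (ENSG00000100292), the inducible heme oxygenase, was at 51.9, 54.9 and 50.9 CPM in control. It was at 79.4, 65.2 and 66.7 CPM with siRNA 1 and 39.4, 37.3 and 38.6 CPM with siRNA 2. All 3 groups were apart. It rose by 0.42 ± 0.09 with siRNA 1 (adjusted p = 0.019) and fell by 0.45 ± 0.09 with siRNA 2 (adjusted p = 0.0092), and the difference between them was -0.87 ± 0.09 (adjusted p = 0.00025). The rise was lost without each of the control libraries in turn (adjusted p up to 0.1001), the fall without control replicate 2 (0.0574), and the difference in none of the 20 alternatives. With the GC trend removed the change with siRNA 2 was -0.29.

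BLVRB (ENSG00000090013), a biliverdin reductase, took the same order. Its level was 62.9, 60.6 and 65.2 CPM in control and 96.3, 77.5 and 76.4 CPM with siRNA 1. With siRNA 2 it was 46.1, 36.1 and 35.3 CPM, with no overlap between the groups. It was not called with siRNA 1 (0.41 ± 0.12, adjusted p = 0.074), fell with siRNA 2 (-0.68 ± 0.12, adjusted p = 0.0066) and differed between the siRNAs by -1.09 ± 0.12 (adjusted p = 0.00045). DESeq2 and the GC correction called the siRNA 1 change as well (adjusted p = 0.0027 with GC correction). Without the 3 libraries with a GC trend the siRNA 2 change was -0.44 (adjusted p = 0.00047). BLVRA, the other biliverdin reductase, averaged 31.0 ± 1.41, 35.9 ± 4.38 and 30.8 ± 1.91 CPM in control, siRNA 1 and siRNA 2 (SD, n = 3) and was not called in any comparison.

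**Figure D3:**
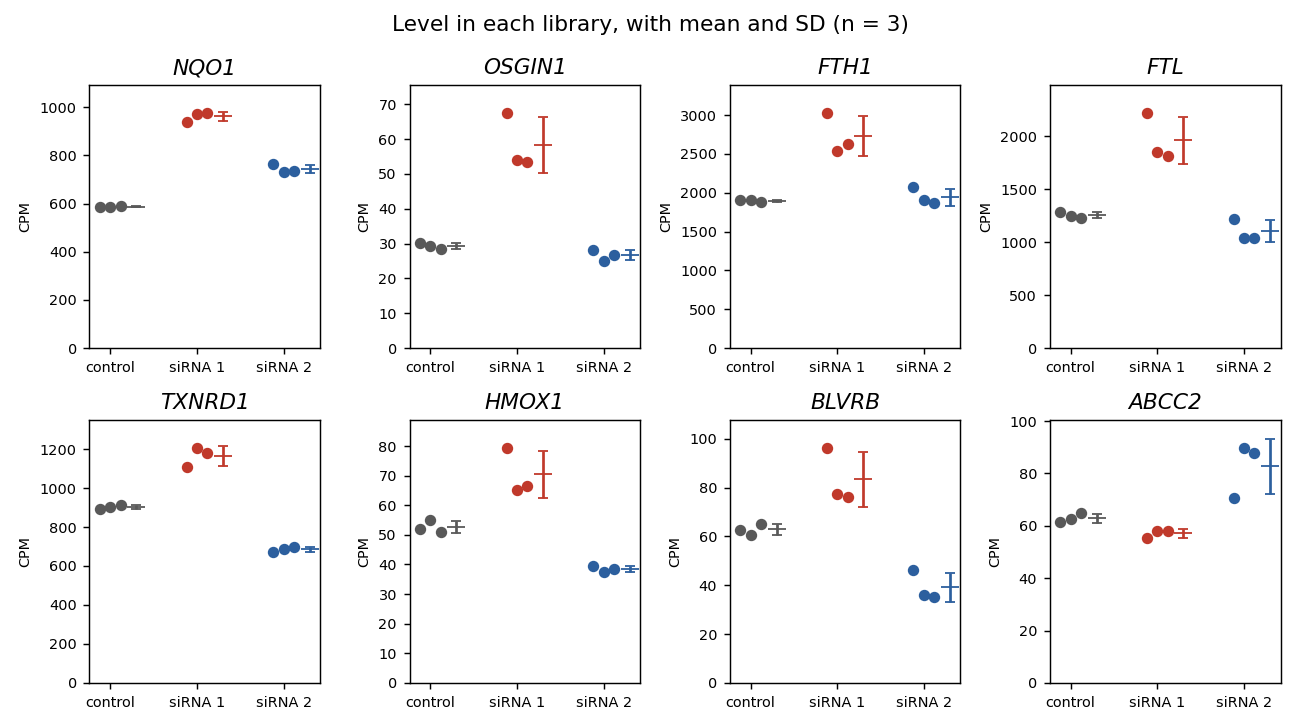
Level in CPM of selected genes in each of the 9 libraries by group, with points for libraries and, beside them, a line at the mean of 3 libraries with whiskers for 1 SD, on linear axes from 0. The siRNA 1 points lie above all control points in every panel except ABCC2, where the siRNA 2 points are the highest. The siRNA 2 points lie below all control points for HMOX1, TXNRD1 and BLVRB, and by a narrow margin for FTL and OSGIN1.

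The thioredoxin branch, which keeps protein thiols and peroxiredoxins reduced, gave 3 rises with siRNA 1. TXNRD1 (ENSG00000198431), the cytosolic thioredoxin reductase, was at 893, 905 and 913 CPM in control, 1106, 1206 and 1181 CPM with siRNA 1 and 671, 689 and 695 CPM with siRNA 2. The groups were fully separated, with siRNA 1 highest and siRNA 2 lowest. It rose by 0.37 ± 0.05 (adjusted p = 0.0032), fell by 0.40 ± 0.05 (adjusted p = 0.0012) and differed between the siRNAs by -0.77 ± 0.05 (adjusted p = 4.0e-05). All 3 calls were kept in all 20 alternatives.

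SRXN1 (ENSG00000271303), the sulfiredoxin that repairs overoxidized peroxiredoxins, was at 155, 158 and 161 CPM in control. It was at 222, 200 and 205 CPM with siRNA 1 and 141, 130 and 137 CPM with siRNA 2. Again no groups overlapped. It rose by 0.40 ± 0.07 with siRNA 1 (adjusted p = 0.0071), a call lost without control replicate 1 or 2 (up to 0.0525), was not called with siRNA 2 (-0.22 ± 0.07, adjusted p = 0.055) and differed between the siRNAs by -0.62 ± 0.07 (adjusted p = 0.00034). PRDX1 (ENSG00000117450), an abundant peroxiredoxin, was at 769, 758 and 754 CPM in control, 1020, 944 and 925 CPM with siRNA 1 and 697, 704 and 689 CPM with siRNA 2. Its libraries fell in the same order without overlap. It rose by 0.34 ± 0.05 with siRNA 1 (adjusted p = 0.0050), was not called with siRNA 2 (-0.13 ± 0.05, adjusted p = 0.14) and differed between the siRNAs by -0.47 ± 0.05 (adjusted p = 0.00043). The MMACHC gene on the opposite strand held 1.85% of the counts of PRDX1.

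TXN, thioredoxin itself, was not called at this threshold. It was at 155, 149 and 152 CPM in control, 196, 185 and 190 CPM with siRNA 1 and 186, 136 and 142 CPM with siRNA 2. The siRNA 1 libraries all lay above control, and siRNA 2 replicate 1 lay apart from its own group. The log2 change with siRNA 1 was 0.33 ± 0.11 (adjusted p = 0.095), and 0.40 ± 0.13 with the GC trend removed (adjusted p = 0.055). DESeq2 called it higher.

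In glutathione synthesis, 1 of the 2 subunits of glutamate-cysteine ligase was called, and the difference between the subunits was not tested. GCLC (ENSG00000001084), the catalytic subunit, was at 127, 128 and 123 CPM in control. It was at 144, 177 and 176 CPM with siRNA 1 and 107, 124 and 129 CPM with siRNA 2. The siRNA 1 libraries were above all others, and siRNA 2 and control overlapped. It rose by 0.39 ± 0.10 with siRNA 1 (adjusted p = 0.040), was -0.08 ± 0.10 with siRNA 2 (adjusted p = 0.67) and differed between the siRNAs by -0.47 ± 0.10 (adjusted p = 0.0091). The rise was lost in 8 alternatives, among them the fits without any 1 control library, without siRNA 1 replicate 2 or 3 and without siRNA 2 replicate 2 or 3, with adjusted p up to 0.138. Without the 3 libraries with a GC trend the difference between the siRNAs was -0.73.

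GCLM (ENSG00000023909), the modifier subunit, was at 61.0, 64.2 and 61.8 CPM in control, 45.9, 71.7 and 70.0 CPM with siRNA 1 and 64.5, 62.0 and 65.1 CPM with siRNA 2. The siRNA 1 libraries disagreed: replicate 1 was the lowest of the 9 and replicates 2 and 3 were the highest. The change with siRNA 1 was 0.00 ± 0.14 (adjusted p = 0.99). GCLM has the lowest GC content of the list, 37.3%. With the GC trend removed the change was 0.22 ± 0.05 (adjusted p = 0.018), and without the 3 libraries with a GC trend 0.19 ± 0.04 (adjusted p = 0.0044). GSS, glutathione synthetase, averaged 91.5 ± 3.12, 99.0 ± 7.17 and 95.6 ± 1.67 CPM in control, siRNA 1 and siRNA 2 (SD, n = 3). It was not called as deposited, and with the GC trend removed it was called with siRNA 2.

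Among genes that recycle and use glutathione, GSR fell with siRNA 2, while GPX4 and GSTP1 were called in the contrast between the siRNAs alone. GSR (ENSG00000104687), glutathione reductase, was at 204, 207 and 201 CPM in control, 192, 220 and 213 CPM with siRNA 1 and 183, 164 and 160 CPM with siRNA 2. The siRNA 2 libraries were below all others. It fell by 0.27 ± 0.08 with siRNA 2 (adjusted p = 0.040), was 0.03 ± 0.08 with siRNA 1 (adjusted p = 0.84) and differed between the siRNAs by -0.30 ± 0.08 (adjusted p = 0.019). The fall was lost in 9 alternatives: with the replicate block (adjusted p = 0.055), with no filter on low counts, without any 1 control library, without siRNA 1 replicate 2 or 3 and without siRNA 2 replicate 2 or 3 (up to 0.161). The difference between the siRNAs was lost without siRNA 1 replicate 2 or 3 and siRNA 2 replicate 2 or 3 (up to 0.0844). Without the 3 libraries with a GC trend the change was -0.15.

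GPX4 (ENSG00000167468), the peroxidase that protects membrane lipids, differed between the siRNAs. It was at 169, 169 and 168 CPM in control, 215, 168 and 171 CPM with siRNA 1 and 161, 110 and 121 CPM with siRNA 2. The high siRNA 1 library and the low siRNA 2 libraries were the 3 with a GC trend. The difference was -0.50 ± 0.14 (adjusted p = 0.029), -0.22 with that trend removed (adjusted p = 0.028) and -0.08 without those libraries (adjusted p = 0.18). It was also lost without any 1 control library, without siRNA 1 replicate 1 and without siRNA 2 replicate 2 or 3 (up to 0.110).

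GSTP1 (ENSG00000084207), a glutathione transferase, was at 283, 295 and 293 CPM in control, 430, 340 and 373 CPM with siRNA 1 and 312, 240 and 233 CPM with siRNA 2. The siRNA 1 libraries were above all others, and siRNA 2 straddled control. The siRNA 1 change of 0.39 ± 0.12 was not called (adjusted p = 0.074), nor was that of siRNA 2 (-0.15 ± 0.12, adjusted p = 0.45), and the difference between them was (-0.54 ± 0.12, adjusted p = 0.011). With the GC trend removed the siRNA 1 change was 0.38 ± 0.05 (adjusted p = 0.00049), and the difference between the siRNAs -0.27. That difference was -0.20 without the 3 libraries with a GC trend and was lost without siRNA 2 replicate 2 or 3 (up to 0.0525).

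The promoter windows of these genes were searched for the core of the antioxidant response element, TGACNNNGC, on both strands. The windows are those of RefSeq on GRCh38.p14, from 250 bases before to 50 after the start. The core occurs in 4687 of 35116 windows, or 13.3%, and in 8 of the 35 windows of members, which belong to 7 of the 25 members with an entry. PRDX1, HMOX1, ABCC1, FTH1, GSR, GSS, ABCC3 and AKR1B10 have no entry and were not searched. A longer form, TGACTCAGC, which includes the core, occurs in 197 windows (0.561%) and among members in GSTP1. The core also occurs in windows of KEAP1, which was not called, and of GPX2 and CBR1, which were not tested. Those are not printed, so the stretches shown do not tie the core to a change. Stretches of 60 bases are shown for members with a call or with a change that turned on the GC trend. The core is in capitals and read along the gene strand.
GSTP1 (chr11:67583721-67583780, plus strand): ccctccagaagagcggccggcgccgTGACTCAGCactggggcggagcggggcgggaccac
TXNRD1 (chr12:104215655-104215714, plus strand): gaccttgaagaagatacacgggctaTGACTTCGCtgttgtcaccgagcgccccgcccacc
TXNRD1, another start (chr12:104286905-104286964, plus strand): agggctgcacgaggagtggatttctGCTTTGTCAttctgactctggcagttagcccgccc
EPHX1 (chr1:225825251-225825310, plus strand): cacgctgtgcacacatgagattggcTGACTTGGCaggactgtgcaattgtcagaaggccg
GCLM (chr1:93909431-93909490, minus strand): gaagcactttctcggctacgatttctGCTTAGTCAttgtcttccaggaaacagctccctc
The cores begin 66 bases before the start in GSTP1, 99 and 102 in TXNRD1, 78 in EPHX1 and 34 in GCLM, where as in the other TXNRD1 start it is read from the opposite strand. A further core lies 8 bases before the first TXNRD1 start on the opposite strand and is not shown. A match is a description of letters in these windows, and the elements through which NRF2 acts often lie farther from the start.

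Among the quinone and aldehyde enzymes, NQO1 was the member called in all 3 comparisons together with TXNRD1 and HMOX1, and it was higher with both siRNAs. NQO1 (ENSG00000181019), the quinone reductase used as a standard readout of NRF2, was at 585, 586 and 591 CPM in control, 939, 970 and 975 CPM with siRNA 1 and 763, 733 and 736 CPM with siRNA 2. The groups were apart, with siRNA 2 between control and siRNA 1. It rose by 0.71 ± 0.05 (adjusted p = 0.00015) and 0.34 ± 0.05 (adjusted p = 0.0018), and differed between the siRNAs by -0.37 ± 0.05 (adjusted p = 0.00081). All 3 calls were kept in all 20 alternatives.

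EPHX1 (ENSG00000143819), the microsomal epoxide hydrolase, was the other member higher with both. It was at 45.8, 44.6 and 43.2 CPM in control, 71.9, 59.5 and 61.2 CPM with siRNA 1 and 51.9, 55.8 and 60.4 CPM with siRNA 2. Both siRNA groups were above control and overlapped each other. Its rise was 0.53 ± 0.09 with siRNA 1 (adjusted p = 0.0088), and siRNA 2 gave a rise of 0.33 ± 0.09 (adjusted p = 0.038); the difference was not called (-0.20 ± 0.09, adjusted p = 0.15). The siRNA 1 call was lost without control replicate 2 or 3 (up to 0.0599). That of siRNA 2 was lost in 8 alternatives, with upper quartile factors, with no filter, without any 1 control library, without siRNA 1 replicate 3 and without siRNA 2 replicate 2 or 3 (up to 0.156). TMEM63A on the opposite strand held 42.0% of the counts of EPHX1.

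OSGIN1 (ENSG00000140961), an NRF2 target named for inhibition of growth by oxidative stress, had the largest fitted rise of the 31 members with siRNA 1. It was at 30.3, 29.4 and 28.5 CPM in control and 67.5, 54.1 and 53.4 CPM with siRNA 1. With siRNA 2 it was at 28.2, 25.1 and 26.9 CPM. Every siRNA 1 library was well above every other library. It rose by 0.99 ± 0.10 (adjusted p = 0.00083), was -0.14 ± 0.10 with siRNA 2 (adjusted p = 0.42) and differed between the siRNAs by -1.12 ± 0.10 (adjusted p = 0.00013). The 2 calls were kept in all 20 alternatives, where the difference between the siRNAs ran from -1.19 to -0.79. The siRNA 2 libraries deviated from the control mean of OSGIN1 by -0.06, -0.22 and -0.13 on the log2 scale. With the GC trend removed these values were 0.04, 0.19 and 0.30, so the sign with siRNA 2 turned on that trend.

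Of the 4 aldo-keto reductases, 1 rose, 1 fell and 2 were not called with siRNA 1. AKR1B10 (ENSG00000198074) was at 1.22, 1.09 and 1.58 CPM in control, 2.55, 2.07 and 2.65 CPM with siRNA 1 and 1.07, 1.41 and 1.15 CPM with siRNA 2. The siRNA 1 libraries stood apart, and siRNA 2 overlapped control. It rose by 0.90 ± 0.22 with siRNA 1 (adjusted p = 0.036) and differed between the siRNAs by -0.997 ± 0.22 (adjusted p = 0.011). The rise was lost in 9 alternatives, including the replicate block (adjusted p = 0.052), the fits without any 1 control or siRNA 1 library and that without siRNA 2 replicate 3 (up to 0.144). The difference was lost without the 3 libraries with a GC trend (adjusted p = 0.065).

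AKR1C3 (ENSG00000196139), which reduces ketosteroids and prostaglandins, went the other way. Its level was 3.44, 4.0 and 4.04 CPM in control, 2.33, 2.34 and 1.97 CPM with siRNA 1 and 2.94, 3.31 and 2.74 CPM with siRNA 2. Groups did not overlap, and siRNA 1 was the lowest. It fell by 0.79 ± 0.16 with siRNA 1 (adjusted p = 0.017), a call lost without control replicate 2 or 3 or siRNA 1 replicate 3 (up to 0.0859). With siRNA 2 it was at -0.35 ± 0.16 (adjusted p = 0.17). AKR1C1 and AKR1C2 are near-identical paralogs, so the split of reads between them is uncertain. They averaged 1.86 ± 0.216 and 0.605 ± 0.0469 CPM in control (SD, n = 3) and were not called. UGDH, which makes the sugar donor of glucuronidation, was at 67.3 ± 3.48 CPM in control and 66.3 ± 10.0 and 69.9 ± 2.41 CPM with siRNA 1 and siRNA 2 (SD, n = 3), and was not called.

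Of the 3 export pumps, ABCC2 (ENSG00000023839), which carries conjugates across the apical membrane, rose with siRNA 2. It was at 61.4, 62.6 and 64.7 CPM in control, 55.2, 58.0 and 58.1 CPM with siRNA 1 and 70.8, 89.8 and 87.8 CPM with siRNA 2. The siRNA 1 libraries were the lowest and the siRNA 2 libraries the highest. It rose by 0.40 ± 0.09 with siRNA 2 (adjusted p = 0.020), was -0.14 ± 0.09 with siRNA 1 (adjusted p = 0.40) and differed between the siRNAs by 0.54 ± 0.09 (adjusted p = 0.0038). Without the 3 libraries with a GC trend the values were 0.17 against control (adjusted p = 0.032) and 0.28 between the siRNAs. The rise was lost without any 1 control library and without siRNA 2 replicate 2 or 3 (up to 0.0922). ABCC1 and ABCC3, basolateral pumps, had log2 changes between -0.07 and 0.10 against control and were not called in the fit of all 9 libraries.

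**Figure D4:**
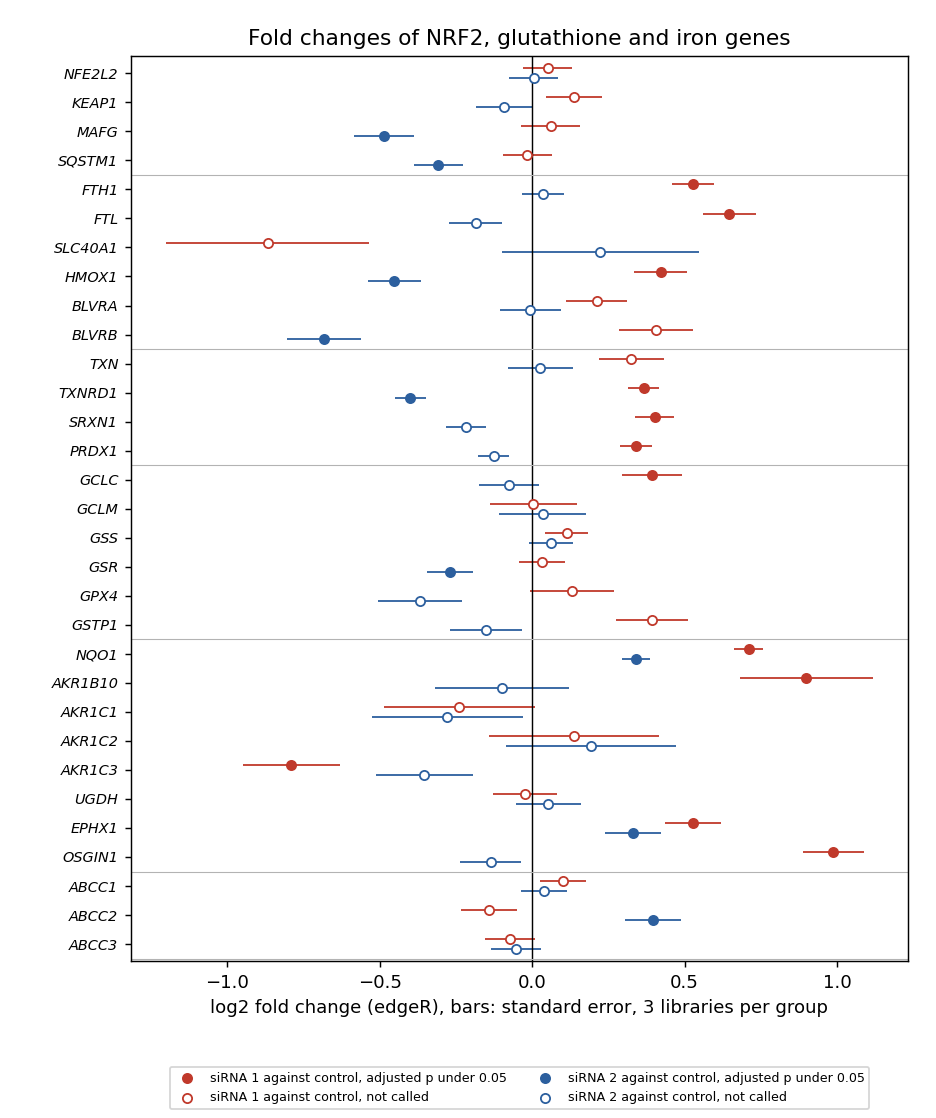
Log2 fold change with its standard error for each of the 31 tested genes with siRNA 1 and with siRNA 2 against the same 3 control libraries, with filled points for an adjusted p under 0.05. NQO1 and EPHX1 lie to the right of 0 with both siRNAs, TXNRD1 and HMOX1 lie on opposite sides, and NFE2L2 lies near 0 with both.

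GPX2 and CBR1 did not pass the filter on low counts. GPX2, the gastrointestinal glutathione peroxidase, held 11, 5 and 4 counts in control, 0, 7 and 6 with siRNA 1 and 5, 0 and 8 with siRNA 2. CBR1, a carbonyl reductase, held 8, 0 and 4, 0, 4 and 0, and 0, 19 and 12 counts. No difference was read from these counts, and whether so few reflect the cells or how reads were assigned in counting cannot be told apart, so their place at the bottom of the order of levels carries the same doubt.

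**Figure D5:**
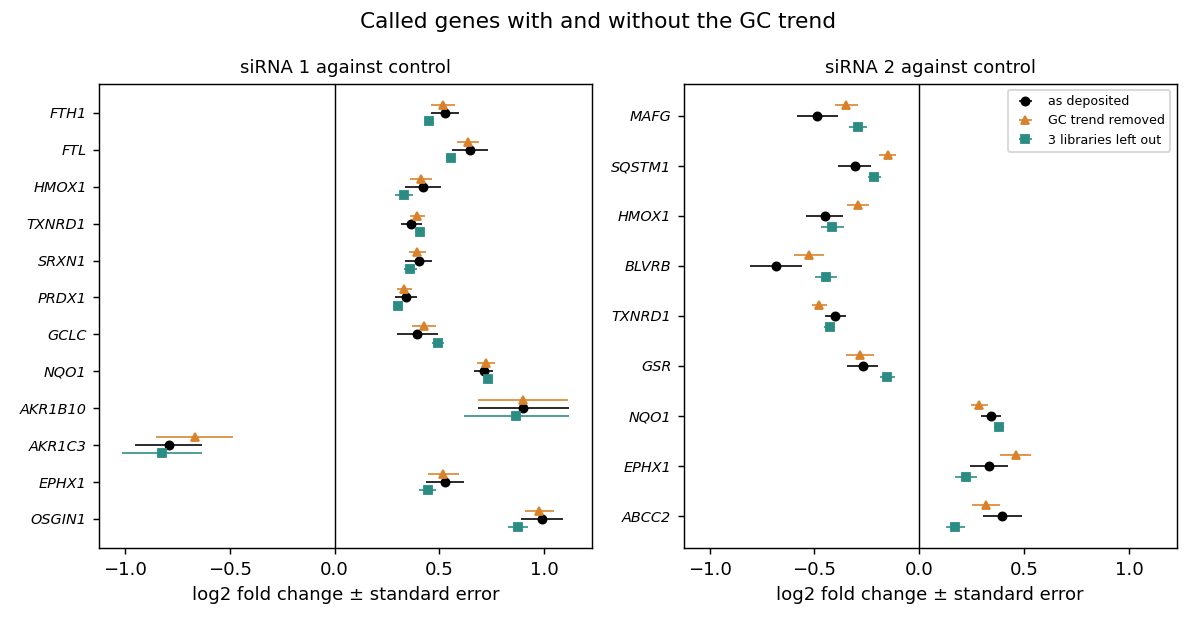
Log2 fold change with its standard error of the members called against control, as deposited, with the GC trend of each library removed, and without the 3 libraries that carry the trend. Every member keeps its sign in the 3 settings, and with siRNA 2 the values of MAFG, SQSTM1, HMOX1, BLVRB, GSR and ABCC2 move toward 0 by over 1.5 times in at least 1 of them.

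Of 23 other NRF2 targets tested among 25, 6 rose and 0 fell with siRNA 1, 5 rose and 4 fell with siRNA 2, and 13 were lower and 4 higher with siRNA 2 than with siRNA 1. The shares called were 26.1%, 39.1% and 73.9%, against 7.08%, 13.8% and 22.4% of all genes. The rises with siRNA 1 numbered 2 without any 1 control library, 2 with no filter, 3 without siRNA 1 replicate 2 or 3, and 12 with the GC trend removed. All genes called in either direction were 2.02% to 2.2%, 2.69%, 3.91% to 4.11% and 20.0% in those fits. With siRNA 2, 3 to 4 rose and 3 to 4 fell without any 1 control library, beside 4.98% to 5.1% of all genes. Without siRNA 1 replicate 1, 6 rose and 7 fell, beside 24.4%. Without siRNA 2 replicate 3, 3 rose and 3 fell, beside 5.1%. The siRNA 1 contrast gave 14 with an unadjusted p under 0.05 in edgeR. The share of all genes at that threshold is not given here, so this count has no background. DESeq2 called 10 higher and 1 lower, and limma-voom 7 and 1, beside 13.9% and 7.58% of all genes. Median log2 changes were 0.29, -0.12 and -0.44. ME1 (malic enzyme, a source of NADPH) averaged 59.5 ± 2.81, 80.3 ± 7.69 and 103 ± 12 CPM in control, siRNA 1 and siRNA 2 (SD, n = 3). It rose by 0.43 (adjusted p = 0.033) and 0.80 (adjusted p = 0.0013), and the first of these calls was lost without any 1 control library and without siRNA 1 replicate 2 or 3 (up to 0.126). PIR (pirin) rose with both, by 0.71 (adjusted p = 0.0019) and 0.41 (adjusted p = 0.014), the second lost without control replicate 1 or 3 or siRNA 2 replicate 3 (up to 0.0724). LUCAT1, a long non-coding RNA induced by NRF2, averaged 55.0 ± 2.62, 75.4 ± 11.1 and 32.4 ± 1.63 CPM, a rise of 0.46 (adjusted p = 0.027) and a change of -0.77 (adjusted p = 0.0017). Its rise was lost without any 1 control library and without siRNA 1 replicate 2 (up to 0.112). The cytochrome gene CYP4F11 fell with siRNA 2 (-0.64, adjusted p = 0.0021) and was 0.01 with siRNA 1 (adjusted p = 0.97).

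Of 17 NRF2 regulators and MAF or CNC family genes, all tested, 0 were called with siRNA 1 by edgeR, beside 7.08% of all genes. Its unadjusted p was under 0.05 for 8 of the 17, with no share of all genes given here for that threshold. DESeq2 called 2 higher and 1 lower there, and limma-voom 1 and 1, beside 13.9% and 7.58% of all genes. With the GC trend removed edgeR called 2 higher and 3 lower with siRNA 1, beside 20.0% of all genes. With siRNA 2, 0 rose and 2 fell. DESeq2 called 1 higher and 2 lower, limma-voom 0 and 2, and edgeR with the GC trend removed 3 of each. All genes called in those 3 fits were 19.9%, 14.7% and 20.8%. At an unadjusted p under 0.05, edgeR gave 3, again without a share of all genes beside it. The share called with siRNA 2, 11.8%, lies near the 13.8% of all genes. Between the siRNAs 1 was higher and 1 lower, 11.8% against 22.4% of all genes. Median log2 changes were -0.07, 0.03 and 0.06. Both that fell are small MAF genes like MAFG. MAFF averaged 33.8 ± 1.65, 25.8 ± 1.28 and 21.8 ± 3.18 CPM (SD, n = 3), with changes of -0.39 (adjusted p = 0.059) and -0.63 (adjusted p = 0.0054). MAFK was at 68.9, 73.6 and 74.2 CPM in control, 68.2, 67.0 and 64.2 CPM with siRNA 1 and 51.7, 31.5 and 33.4 CPM with siRNA 2, a change of -0.89 with siRNA 2 (adjusted p = 0.0064). The siRNA 2 libraries lowest in MAFK are the 2 with a GC trend, and the GC content of MAFK is 63.4%. Over the 20 alternatives the siRNA 2 change ran from -1.15 to -0.48 for MAFK, nearest 0 without the 3 libraries with a GC trend, and from -0.75 to -0.38 for MAFF, nearest 0 with that trend removed. Both calls were kept in all of them. TMEM184A on the opposite strand held 54.2% of the counts of MAFK.

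Of 33 further glutathione and peroxide genes tested among 36, 6 rose and 0 fell with siRNA 1. At an unadjusted p under 0.05 edgeR gave 16 there, and the share of all genes at that threshold is not given here. DESeq2 called 11 higher and 1 lower, and limma-voom 6 and 0, beside 13.9% and 7.58% of all genes. With siRNA 2, 5 rose and 4 fell, and 8 were lower and 3 higher with siRNA 2 than with siRNA 1. The shares called were 18.2%, 27.3% and 33.3%, against 7.08%, 13.8% and 22.4% of all genes. Without control replicate 1, 2 or 3 the genes that rose with siRNA 1 numbered 2, 3 and 2, beside 2.2%, 2.02% and 2.09% of all genes called. With the GC trend removed 14 rose and 2 fell, beside 20.0%. The siRNA 2 counts were 2 and 1, 1 and 1, and 3 and 1 without those controls, beside 5.1%, 4.98% and 5.06%. They were 9 and 6 without siRNA 1 replicate 1, beside 24.4%. Without siRNA 2 replicate 1, 2 or 3 they were 7 of each, 3 and 2, and 2 and 1, beside 20.2%, 5.06% and 5.1%. Medians were 0.10, 0.05 and -0.05. CHAC1, which degrades glutathione and is a target of ATF4, was at 13.6, 14.7 and 14.3 CPM in control, 29.1, 23.9 and 26.1 CPM with siRNA 1 and 6.76, 5.57 and 4.23 CPM with siRNA 2. The groups were far apart, at 0.90 (adjusted p = 0.0088), -1.36 (adjusted p = 0.00089) and -2.26 between the siRNAs (adjusted p = 4.6e-05). The siRNA 1 call was lost without control replicate 1 or 3 (up to 0.0527). MGST3 and GSTZ1, glutathione transferases, rose with siRNA 1 by 0.57 (adjusted p = 0.0019) and 0.64 (adjusted p = 0.0049). GSTZ1 overlaps POMT2 on the opposite strand, which held more counts than it, at 177% of its own. PRDX6 averaged 158 ± 1.40, 175 ± 2.48 and 228 ± 2.72 CPM and rose with siRNA 2 by 0.53 (adjusted p = 0.00045).

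Of 24 further iron genes tested among 25, 2 rose and 2 fell with siRNA 1, 2 rose and 1 fell with siRNA 2, and 3 were higher and 3 lower with siRNA 2 than with siRNA 1. That is 16.7% of the list against 7.08% of all genes with siRNA 1 and 12.5% against 13.8%, near the background, with siRNA 2. Between the siRNAs the share of the list called was also near the background, just above the 22.4% of all genes. Without any 1 control library 0 rose and 2 fell with siRNA 1, and 0 rose and 1 fell with siRNA 2. All genes called there were 2.02% to 2.2% and 4.98% to 5.1%. Without siRNA 1 replicate 1 the counts were 5 and 3, and 4 and 6, beside 11.7% and 24.4%. Without siRNA 2 replicate 2 or 3, 0 rose and 1 fell with siRNA 2, beside 5.06% and 5.1%. Without siRNA 1 replicate 3 it was 1 of each, beside 11.2%. Medians were 0.06, 0.00 and -0.01. The iron regulatory protein gene IREB2, whose product binds the elements printed above, was at 84.2, 84.5 and 86.6 CPM in control, 36.0, 52.3 and 54.5 CPM with siRNA 1 and 86.8, 93.0 and 104 CPM with siRNA 2. All siRNA 1 libraries were far below the rest. It fell by 0.84 ± 0.14 with siRNA 1 (adjusted p = 0.0076), was 0.15 ± 0.14 with siRNA 2 (adjusted p = 0.53) and differed by 0.99 ± 0.14 between the siRNAs (adjusted p = 0.0014), with a range of 0.66 to 1.10 over the alternatives. SLC25A37, the mitochondrial iron importer mitoferrin, fell with both, by 0.48 (adjusted p = 0.0027) and 0.58 (adjusted p = 0.00065). STEAP3, a ferrireductase, and HMOX2, the constitutive heme oxygenase, rose with siRNA 1 by 0.42 (adjusted p = 0.012) and 0.40 (adjusted p = 0.017), and both calls were lost without any 1 control library (up to 0.0784 and 0.0937). NMRAL1 on the opposite strand held 73.2% of the counts of HMOX2.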

How the data were processed

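RNA-seq counts of 9 HCT116 libraries were analysed, 3 per group, with groups taken from the titles and treatments. The values the authors deposited are raw counts, per the labels, with a row for each Ensembl gene. The build is hg19 per the submitters' processing notes; aligner, counter, annotation and strand used in counting were not given in the sources used here. Genes were filtered with filterByExpr (minimum count 10, total 15), which left 20868 genes with 99.96% of counts. edgeR 4.0.16 in R 4.3.3 was run on all 9 libraries in 1 model of group means with TMM factors (quasi-likelihood test, two-sided). Adjustment was by Benjamini-Hochberg over all genes tested, and genes were called at an adjusted p under 0.05. The common biological coefficient of variation was 20.0%. CPM were computed from the deposited counts over the tested genes with TMM factors, and the plotted deviations use a pseudocount of 0.5 CPM.

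The members, lists, tests and alternatives were chosen with earlier results of these data known. Members called in any comparison are given in every library, with up to 4 genes of each other list, called against control and taken by the smaller adjusted p of the 2 comparisons with control. Alternatives were edgeR with other size factors, DESeq2 1.42.0, limma-voom 3.58.1, no filter, only the groups compared, each library left out, a replicate block, a GC trend per library removed by a spline with 5 degrees of freedom, and processed copies summed. A fit without the 3 libraries with a GC trend was added after the data were seen; it leaves 1 siRNA 2 library, which is assumed to vary like the others. SOD2 had no matching row, and hg19 coordinates were not used here. Sequences come from GENCODE 29 transcripts and RefSeq promoter windows, and 25 of 33 members had a promoter entry.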

Additional observations from a re-analysis of the deposited data

How the results depend on the processing

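Of 780 values of 39 single calls under 20 alternatives, 682 kept the call, 98 lost it and 0 changed sign; 21 calls were kept throughout. Without the 3 libraries with a GC trend, a setting chosen after the data were seen, 20 members were called with siRNA 1 in place of 12 (17 higher and 3 lower), and 14 with siRNA 2 in place of 9 (5 higher). Leaving out each library in turn gave 6 to 15 members with siRNA 1 (6 to 14 higher, 0 to 1 lower), 3 to 13 with siRNA 2 (1 to 3 higher, 2 to 10 lower) and 1 to 2 higher with siRNA 2 than with siRNA 1. The share of all genes called in either direction moved as well. It was 2.02% to 11.7% with siRNA 1, 4.98% to 24.4% with siRNA 2 and 9.87% to 26.9% between the siRNAs. The lowest member counts with each siRNA came without control replicate 2 (6 and 3). The member median with siRNA 1 was 0.22 with GC correction and 0.13 to 0.20 with each library left out. Between the siRNAs it was -0.20 without the 3 libraries and -0.35 to -0.24 with each library left out. Members higher with siRNA 2 than with siRNA 1 numbered 1 with no filter, with only the 2 groups, with GC correction, with the replicate block and GC correction, and without the 3 libraries. The cause was not tested.

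Same-numbered libraries did not deviate together across all genes tested (r between -0.0449 and 0.0962). The labels do not say whether the numbers pair libraries. These r cannot decide it, since they are across genes and the GC trends of single libraries were left in. The replicate block lost AKR1B10 with siRNA 1 and GSR with siRNA 2 and gained BLVRB and GPX4, and with GC correction beside it the siRNA 1 median was 0.22. Over all genes, calls higher and lower with siRNA 1 were 777 and 701 as reported, 2460 and 1707 with GC correction, 1537 and 1374 with DESeq2 and 532 and 437 with no filter. With siRNA 2 they were 1284 and 1588, then 2360 and 1988 with GC correction, 1420 and 1254 with upper quartile factors, and 2436 and 2228 with only the 2 groups. Between the siRNAs they were 2116 and 2565, and 1084 and 1241 with only the 2 groups. Low members (AKR1C1, AKR1C2, SLC40A1, AKR1B10, GPX2, CBR1) are limited by their counts.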
